A study of Mus musculus with 6 samples.

Results

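The genes described here encode the proteasome, its activators, its inhibitor and the chaperones that assemble it. Members were the genes whose symbol begins with Psm, a letter from a to g and a digit, with 1 gene left out by the same rule. Only probe sets (groups of short probes that report 1 transcript) with exactly 1 gene symbol were used, and the probe set with the highest mean over the 6 arrays stood for its gene. This gave 48 of the 18193 genes with such a probe set. Of these, 46 passed the filter on dim probe sets and were tested, as were 12938 genes in all. The name pattern also takes in 2 genes, Psmc3ip and Psme3ip1, whose products bind proteasome proteins but are not part of the complex. Psme2 had no probe set with a single symbol and was not analysed here.

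The proteasome degrades proteins that carry ubiquitin. Its core particle is a barrel of alpha rings, which gate the entrance, and beta rings, which hold the proteolytic sites. A regulatory particle caps the barrel, where non-ATPase subunits receive and deubiquitinate the substrate and a ring of ATPases unfolds it. Other activators can dock in place of that cap, and interferon replaces some beta subunits with inducible forms. In skeletal muscle the system removes myofibrillar protein during atrophy, and the transcription factor Nfe2l1 is known to raise the subunit genes together when proteasome activity is short.

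Calf muscle (gastrocnemius and soleus) of integrin alpha7 transgenic mice was compared with that of wild type mice. All animals were female, aged 5 weeks, non-fasted and of SJ6/C57BL6 background. Each genotype had 3 arrays, and each array carried total RNA of a pool of 6 animals, 18 animals per genotype, so the error below is the spread between pools. The wild type titles also carry the word Intronic, and no source used here gives the promoter that drives the transgene. Itga7 itself gave signals of 254, 308 and 313 in wild type and 2498, 2144 and 2072 in transgenic muscle, so each array matched its genotype label. All 11 skeletal muscle fibre markers were tested, with mean signals of 3291 for Tnni1 to 22470.2 for Tnnt3. Differences are given as transgenic minus wild type on the log2(signal + 16) scale, where 16 is an offset that damps noise in dim probe sets. The adjusted p is that of limma's moderated test after Benjamini-Hochberg adjustment over all 27022 tested probe sets. In whole muscle, fewer cells of a type and less RNA per cell cannot be told apart.

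No proteasome gene differed between the genotypes at an adjusted p of 0.05, where 0.122% of all tested probe sets did. With the fluidics module of the array as a random block, Psme1 and Psmb3 passed, at adjusted p of 0.0249 and 0.0419 in limma. In that fit the estimated correlation within a module was -0.44, and calls over all probe sets rose from 33 to 297. Module and genotype cannot be told apart, since no module held both genotypes. A negative correlation within modules lowers the estimated error of a comparison between modules, so these passes were not counted as calls. The largest positive difference was that of the activator subunit Psme1, at 0.41, and the largest negative ones were those of the chaperone Psmg4, at -0.36, and the beta ring subunit Psmb3, at -0.26. The 46 differences had a median of -0.0070, with 22 positive and 24 negative, and their mean was 0.013. Over all 12938 genes tested the median was -0.0038, with 49% positive, and of all tested probe sets 47.4% were positive and 52.6% negative. When every array was instead scaled to the same median, the median of all probe sets moved from -0.012 to 0.039 and that of the members to 0.043, so the sign of the members' median depended on the scaling. The median half-width of the members' 95% intervals was 0.17, and for 39 of 46 the whole interval lay within 0.5 of no difference.

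At an unadjusted p under 0.05 there were 7 members, 5 higher and 2 lower, against 7.85% of all tested probe sets (3.51% higher and 4.34% lower) and 8.19% of genes by their brightest probe set. For 13 members every array of one genotype lay above every array of the other, 6 with transgenic muscle higher and 7 with it lower. That is 28.3% of the 46, against 13.4% of all tested probe sets (5.85% higher and 7.5% lower) and 14.2% of genes. Among the 2528 genes with mean signals of 500 to 7000, a range chosen after the data were seen to resemble that of the core and regulatory subunits, 11.7% had such a p and 17.8% did not overlap. The count fell to 6 members when the arrays were scaled to equal medians, namely Psmd10, Psme1, Psme3, Psmg2 and Psmg3 above and Psmb3 below, while 13.2% of all probe sets then did not overlap.

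**Figure D1:**
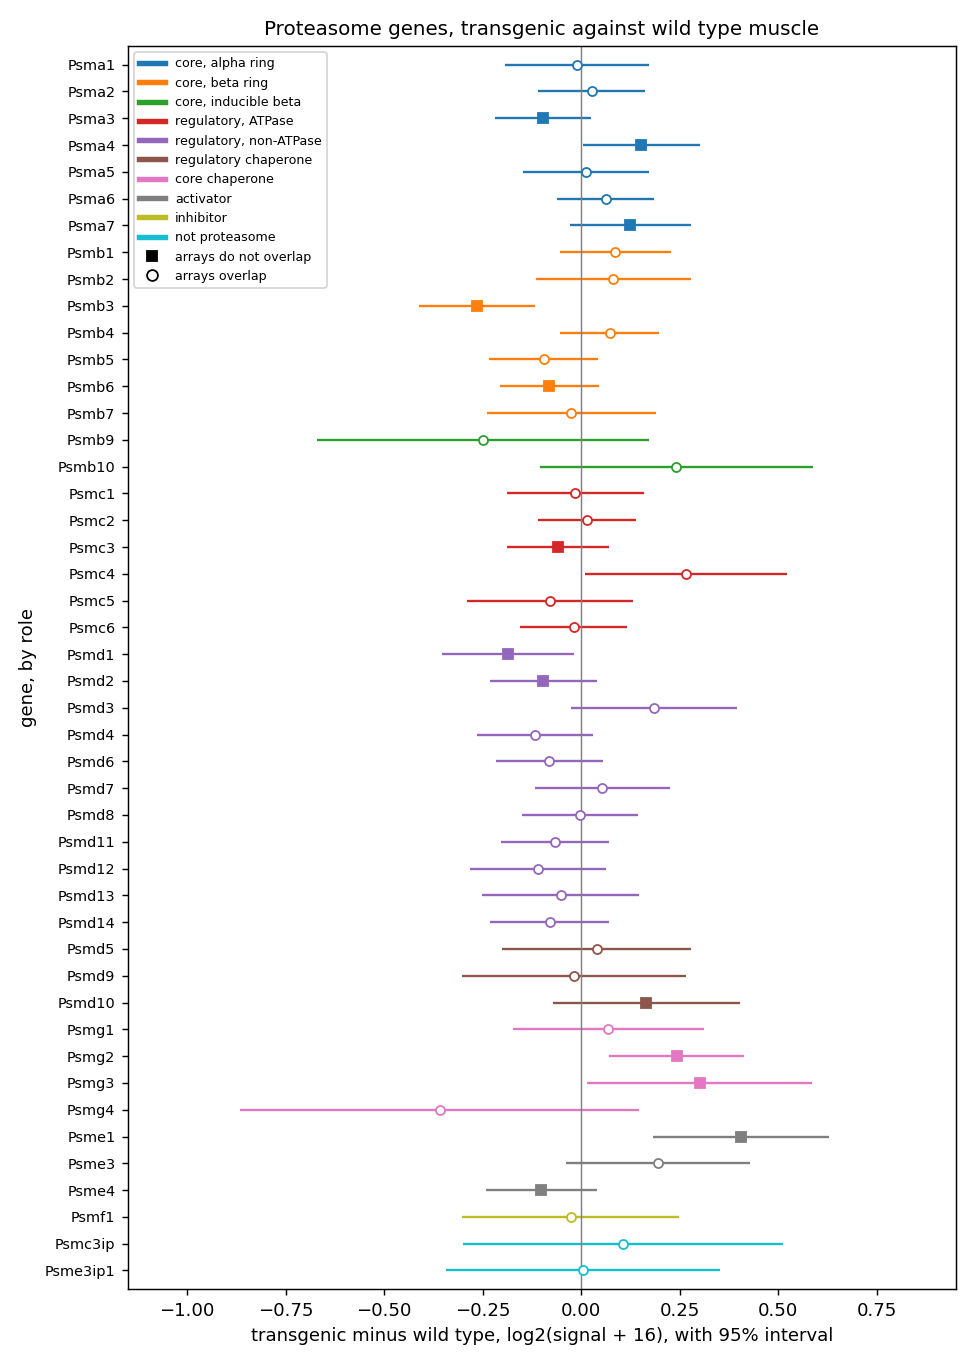
Difference between genotypes for each of the 46 tested genes, as transgenic minus wild type on the log2(signal + 16) scale (horizontal axis), with 95% intervals from limma and genes grouped by role (vertical axis, colours). Filled squares are the 13 genes whose arrays do not overlap, and Psme1 at 0.41 lies farthest to the right and Psmg4 at -0.36 farthest to the left.

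Promoter sequence was available for 40 of the 48 genes in RefSeq's table of assembly GRCm38.p6. It was not listed for Psma8, Psmb1, Psmb2, Psmb7, Psmc3, Psmd3, Psmd7 and Psmg2. The 250 bases before the annotated start are shown for 5 genes whose arrays did not overlap: the activator gene Psme1 and the alpha ring gene Psma4 among the higher ones, and Psmb3, Psmb6 and Psmd1 among the lower ones. They lie at chr14:55578244-55578493 (Psme1), chr9:54950609-54950858 (Psma4), chr11:97703184-97703433 (Psmb3), chr11:70525107-70525356 (Psmb6) and chr1:86064369-86064618 (Psmd1), all on the plus strand. Capitals mark matches to 5 motifs searched on both strands: the antioxidant response element core TGACNNNGC, which Nfe2l1 and Nfe2l2 bind, the boxes CCAAT and TATAAA, the interferon-stimulated response element (GAAA, any 2 bases, GAAA) and the gamma-activated site TTCNNNGAA.
Psme1: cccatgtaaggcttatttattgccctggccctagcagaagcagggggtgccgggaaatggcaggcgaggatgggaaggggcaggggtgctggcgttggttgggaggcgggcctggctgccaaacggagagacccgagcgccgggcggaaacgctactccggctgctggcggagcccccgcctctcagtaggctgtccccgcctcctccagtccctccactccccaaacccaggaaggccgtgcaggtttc
Psma4: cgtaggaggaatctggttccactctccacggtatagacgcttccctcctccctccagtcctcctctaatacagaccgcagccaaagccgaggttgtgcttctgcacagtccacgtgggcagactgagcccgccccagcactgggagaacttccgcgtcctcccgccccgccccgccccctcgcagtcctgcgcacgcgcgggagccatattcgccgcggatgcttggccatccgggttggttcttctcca
Psmb3: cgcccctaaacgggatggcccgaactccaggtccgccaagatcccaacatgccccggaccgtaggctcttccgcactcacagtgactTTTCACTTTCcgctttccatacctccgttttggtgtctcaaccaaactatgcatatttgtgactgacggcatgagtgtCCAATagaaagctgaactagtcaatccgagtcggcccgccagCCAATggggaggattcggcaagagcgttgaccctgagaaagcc
Psmb6: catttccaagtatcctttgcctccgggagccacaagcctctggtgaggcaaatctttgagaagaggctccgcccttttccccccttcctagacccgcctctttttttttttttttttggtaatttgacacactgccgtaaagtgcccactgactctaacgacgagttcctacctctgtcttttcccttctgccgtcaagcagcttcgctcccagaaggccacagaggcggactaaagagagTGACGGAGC
Psmd1: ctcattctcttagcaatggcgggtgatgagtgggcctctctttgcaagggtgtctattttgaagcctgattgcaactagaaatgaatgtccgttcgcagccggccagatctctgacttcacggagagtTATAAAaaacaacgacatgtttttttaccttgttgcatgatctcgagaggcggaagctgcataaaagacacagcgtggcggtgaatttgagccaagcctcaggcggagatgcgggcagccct

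The antioxidant response core was found in 5 of the 40 members' windows, those of Psmb5, Psmb6, Psmc6, Psmd9 and Psmd12, which is 12.5%, and in 10.1% of all 27025 promoter windows of the same length. In Psmb6 it is TGACGGAGC, in the last 9 bases before the start. The CCAAT box was found in 37.5% of members and 34.5% of all windows, and TATAAA in 7.5% and 13%. The interferon-stimulated element was in 3 members, Psmb3, Psmd4 and Psmd9, or 7.5%, against 3.04% of all windows, and the gamma-activated site in Psmg1 alone, or 2.5%, against 7.18%. In the Psmb3 window the interferon-stimulated match reads TTTCACTTTC and 2 CCAAT boxes stand nearer the start. The windows of Psme1 and Psma4 held none of the 5 motifs in these letters. A looser form of the antioxidant element, TGANNNNGC, which takes in every match of the core, was also searched and is not capitalised. It was in 15 of 40 members, or 37.5%, and 35.1% of all windows, in those of Psma4, Psmb3, Psmb6 and Psmd1 but not of Psme1. The genes and motifs shown were chosen after values and matches were seen.

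Alpha ring genes differed little between the genotypes. Of 7 tested, 5 had positive and 2 negative differences, from -0.097 for Psma3 to 0.15 for Psma4, with a median of 0.027 (0.077 with equal array medians). Psma4 gave signals of 1834, 1861 and 2073 in wild type and 2192, 2087 and 2129.8 in transgenic muscle. Every transgenic array lay above every wild type one, although wild type replicate 3 came within reach of transgenic replicate 2. The difference of 0.15 had a standard error of 0.07 and an adjusted p of 0.62 in limma. For Psma7 the wild type arrays gave 1308, 1274 and 1351 and the transgenic ones 1533, 1378 and 1385, a difference of 0.12 with an adjusted p of 0.716. Its groups did not overlap either, transgenic replicate 1 standing apart above the rest. A further probe set of Psma7 did overlap between the genotypes, with a difference of 0.054.

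Psma3 ran the other way, with 4779, 5273 and 4917 in wild type and 4642, 4684 and 4657 in transgenic muscle. The transgenic arrays were closely spaced, at 4661 ± 21.3 (SD, n = 3), below wild type at 4989.6 ± 255 (SD, n = 3), and the difference of -0.097 had an adjusted p of 0.721 in limma. A dimmer probe set of Psma3 also did not overlap, with a difference of -0.49. Psma1, Psma2, Psma5 and Psma6 overlapped between the genotypes, with differences of -0.011, 0.027, 0.013 and 0.062. The testis form Psma8 gave a mean signal of only 13.3, below the filter at about 21.7, and was not tested. Its signals were 22.7, 15.6 and 13.9 in wild type and 12.8, 8.03 and 6.94 in transgenic muscle. The germ cell markers Tnp1, Prm1 and Prm2 were likewise dim, with mean signals of 9.16, 13.1 and 15.7.

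Among the 7 constitutive beta ring genes, 3 differences were positive and 4 negative, with a median of -0.025, which was 0.025 with equal array medians. Psmb3, a subunit without a proteolytic site, gave 1969, 2056 and 2007 in wild type and 1774, 1686 and 1559 in transgenic muscle. All transgenic arrays lay below all wild type ones, and the transgenic arrays were spread more widely than the wild type ones. The means were 2011 ± 43.3 and 1673 ± 108 (SD, n = 3), a fold of 0.832, with a log2 difference of -0.26 (95% interval -0.41 to -0.12, limma adjusted p 0.29). A further probe set of Psmb3 did not share this pattern. It gave 1392, 1344 and 1408 in wild type and 1528, 1294 and 1414 in transgenic muscle, a difference of 0.029.

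Of the 3 proteolytic subunits none was called. Psmb6, the caspase-like subunit, gave 2504, 2387 and 2405 in wild type and 2269.9, 2294 and 2329 in transgenic muscle. These groups did not overlap, yet the difference was only -0.081, with an adjusted p of 0.788. Psmb5, the chymotrypsin-like subunit, gave -0.096, with a 95% interval of -0.23 to 0.04. For Psmb7, the trypsin-like subunit, the wild type arrays gave 6791, 6123 and 6611 and the transgenic ones 7219, 5296 and 6823. Transgenic replicate 2 was the lowest and transgenic replicate 1 the highest of all, and the difference was -0.025. The structural subunits Psmb1, Psmb2 and Psmb4 gave 0.087, 0.081 and 0.072, and their groups overlapped.

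The inducible beta subunits, which take the place of constitutive ones after interferon, differed from each other in sign. Psmb10, which replaces Psmb7, gave 260.1, 289.8 and 325 in wild type and 297, 301 and 462 in transgenic muscle. Transgenic replicate 3 alone was high, and the difference of 0.24 became 0.041 without it. Psmb9, which replaces Psmb6, gave 184, 160.2 and 200.3 in wild type and 169.5, 192 and 102 in transgenic muscle. Here the same array was the lowest of all, and the difference was -0.25 with an adjusted p of 0.804. The thymus form Psmb11 gave a mean signal of 8.33, below the filter.

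ATPase genes of the regulatory particle gave no call. Of 6 tested, 2 were positive and 4 negative, with a median of -0.017 and a mean of 0.018, which differ in sign, and the median was 0.033 with equal array medians. Psmc4 had the largest difference, with 1021, 1353 and 1227 in wild type and 1566, 1217 and 1558 in transgenic muscle. Transgenic replicate 2 fell among the wild type arrays, and the difference of 0.27 had an adjusted p of 0.62 in limma. A further probe set of Psmc4 gave -0.013. Psmc3 gave 2752, 2738 and 2715 in wild type and 2693, 2496 and 2691 in transgenic muscle, without overlap, and a difference of only -0.059. Psmc2 gave 3454, 3268 and 3386 against 3508, 3423 and 3276, a difference of 0.014 with overlapping groups. Psmc1, Psmc5 and Psmc6 gave -0.015, -0.079 and -0.019.

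Non-ATPase subunits were mostly slightly below wild type, with 9 of 11 differences negative and a median of -0.080, where 51% of all genes tested were negative. With equal array medians 8 of 11 were negative and the median was -0.030. The mean deviation of the 11 genes from their own means was 0.055, -0.018 and 0.039 on the wild type arrays. On the transgenic arrays it was 0.010, -0.098 and 0.012, so the groups overlapped and transgenic replicate 2 alone lay below the wild type range. The 11 genes share these arrays, so their signs are not independent. Psmd1, a large scaffold subunit, gave 1809, 1605 and 1532 in wild type and 1484, 1377 and 1476 in transgenic muscle. The groups did not overlap, although wild type replicate 3 lay close to transgenic replicate 1, and the difference of -0.18 had a standard error of 0.08 and an adjusted p of 0.593. Psmd2, the other large scaffold subunit, gave 2529, 2420.2 and 2499 against 2380.4, 2188 and 2400.3, also without overlap, and a difference of -0.096. Psmd6 gave 4326, 3802 and 4052 in wild type and 3923, 3709.8 and 3864 in transgenic muscle. Its groups overlapped, and the difference was -0.081.

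Psmd4, a ubiquitin receptor, gave -0.12, and Psmd14, the deubiquitinase of the regulatory particle, gave -0.080. Psmd12 gave -0.11, Psmd11 -0.066, Psmd13 -0.052 and Psmd8 -0.0034, all with overlapping groups. Psmd11 had 4 further tested probe sets, and each was negative, from -0.098 to -0.033. Psmd4 had 2, at -0.027 by a probe set nearly as bright and at -0.54 by a dim one. Psmd13 also had 2, at 0.061 and -0.20. Among the brightest probe sets the exceptions were Psmd3, at 0.18, and Psmd7, at 0.054. Psmd3 gave 538, 536 and 605 in wild type and 589, 613 and 716 in transgenic muscle, which overlap.

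**Figure D2:**
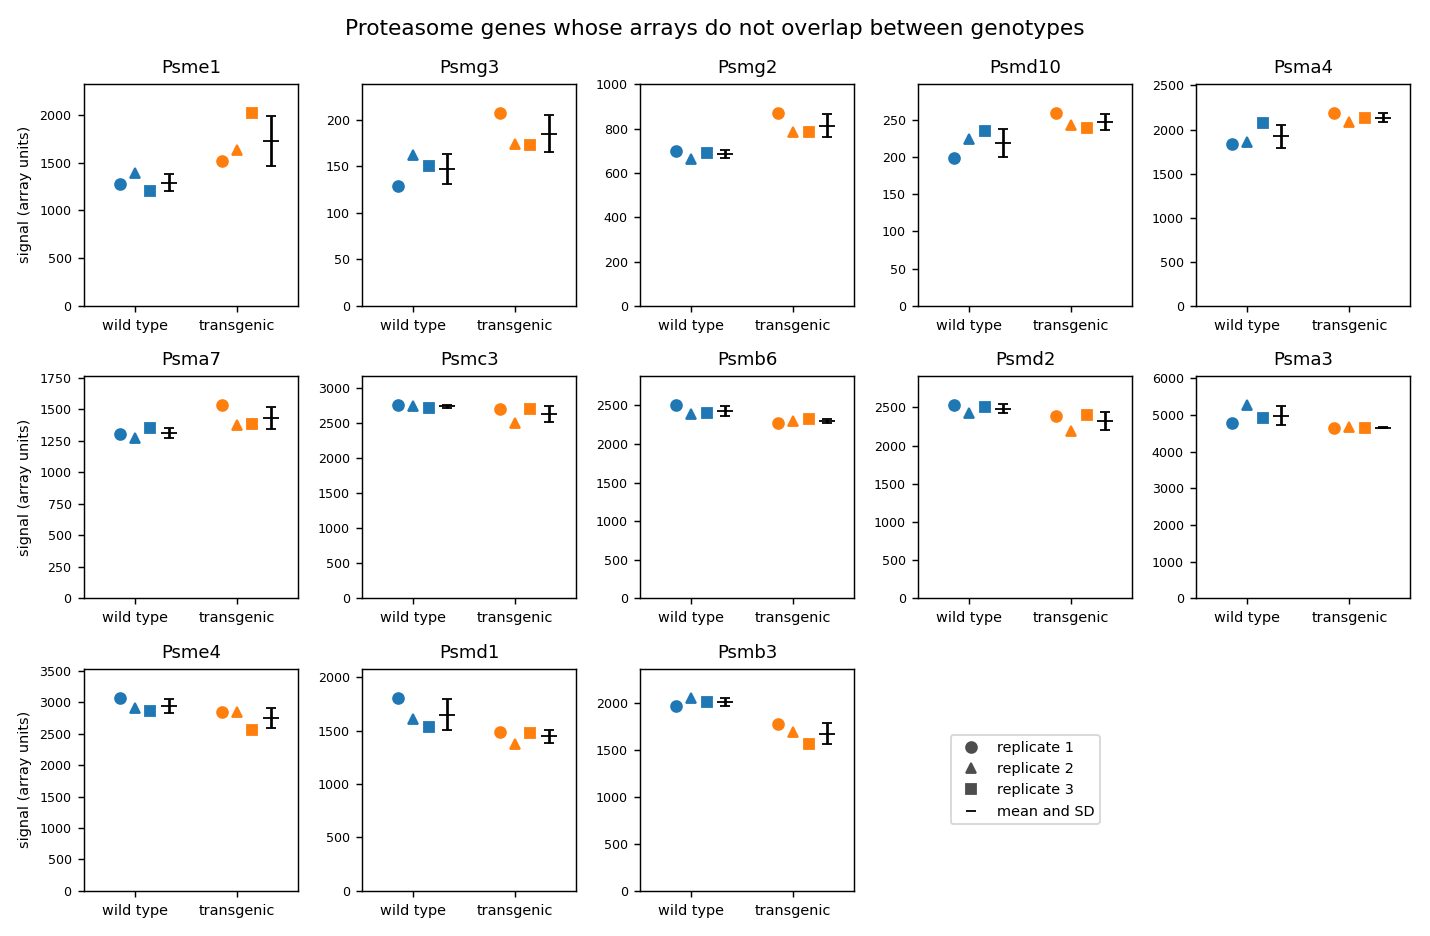
Signal on each array (vertical axes, array units from 0) for the 13 genes whose genotypes do not overlap, wild type in blue and transgenic in orange, with symbols for replicates and black bars for mean and SD (n = 3). Panels run from Psme1, 1.32-fold, to Psmb3, 0.832-fold, and in most the gap between groups is small beside the level.

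Core and regulatory particle were compared directly, with 14 constitutive core genes and 17 regulatory subunit genes. The median difference was 0.020 for the core, with 8 positive and 6 negative, and -0.059 for the regulatory particle, with 4 positive and 13 negative. None of the 31 genes was called, and 5 core genes (35.7%) and 3 regulatory genes (17.6%) did not overlap, against 13.4% of all tested probe sets and 14.2% of genes. Among genes with mean signals of 500 to 7000 the share was 17.8%. With equal array medians only Psmb3 of the 31 did not overlap. For all 14 core genes and 16 of 17 regulatory genes, all but Psmc4, the 95% interval lay within 0.5 of no difference. The medians differed by 0.079, and this was set beside the spread between arrays, as the mean deviation of each gene set from its genes' means. Core minus regulatory was then -0.038, -0.020 and 0.014 on the wild type arrays and 0.019, 0.066 and -0.041 on the transgenic ones.

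The highest and the lowest value were both transgenic, so the groups overlapped. On these array means the genotypes differed by 0.030, with an SD of 0.026 among wild type and 0.054 among transgenic arrays (n = 3). For array medians in place of array means, the pooled SD between arrays of a genotype was 0.044. The 0.079 is a difference between medians of gene differences, a different quantity, so that SD is not its own spread. Much of the regulatory particle's lower value came with a single array. Transgenic replicate 2 deviated by -0.091, while replicates 1 and 3 deviated by 0.022 and 0.030 and the wild type arrays by 0.020, -0.0021 and 0.021. Without transgenic replicate 2 the regulatory median was -0.023 and the core median 0.047. When all probe sets of a gene were averaged, the core median was -0.037 and the regulatory one -0.059. In hybridisation round 1 the medians were 0.070 for the core and -0.044 for the regulatory particle, and in round 2, with 1 array of each genotype, -0.030 and -0.048.

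Muscle fibre markers were read beside these genes. Their difference was negative for 9 of 11, with a median of -0.12, and for 9 of 11 with equal array medians but only 5 of 11 with quantile normalization, where the median was 0.0011. None was called, and 6 of 11 lay lower without overlap, against 7.5% of all tested probe sets, Tnnc2 having the smallest p, at -0.16 with an adjusted p of 0.33. The 2 positive markers, Myh7 at 0.14 and Tnni1 at 0.0029, were the dimmest of the list. Summed over the list, wild type arrays gave 171296 to 173774 and transgenic arrays 154026 to 162949. The highest signal on an array, on some that of Tnnt3, was 23547 to 23952 in wild type and 21386 to 22469 in transgenic muscle. The part of the markers in the regulatory particle's values was not tested.

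**Figure D3:**
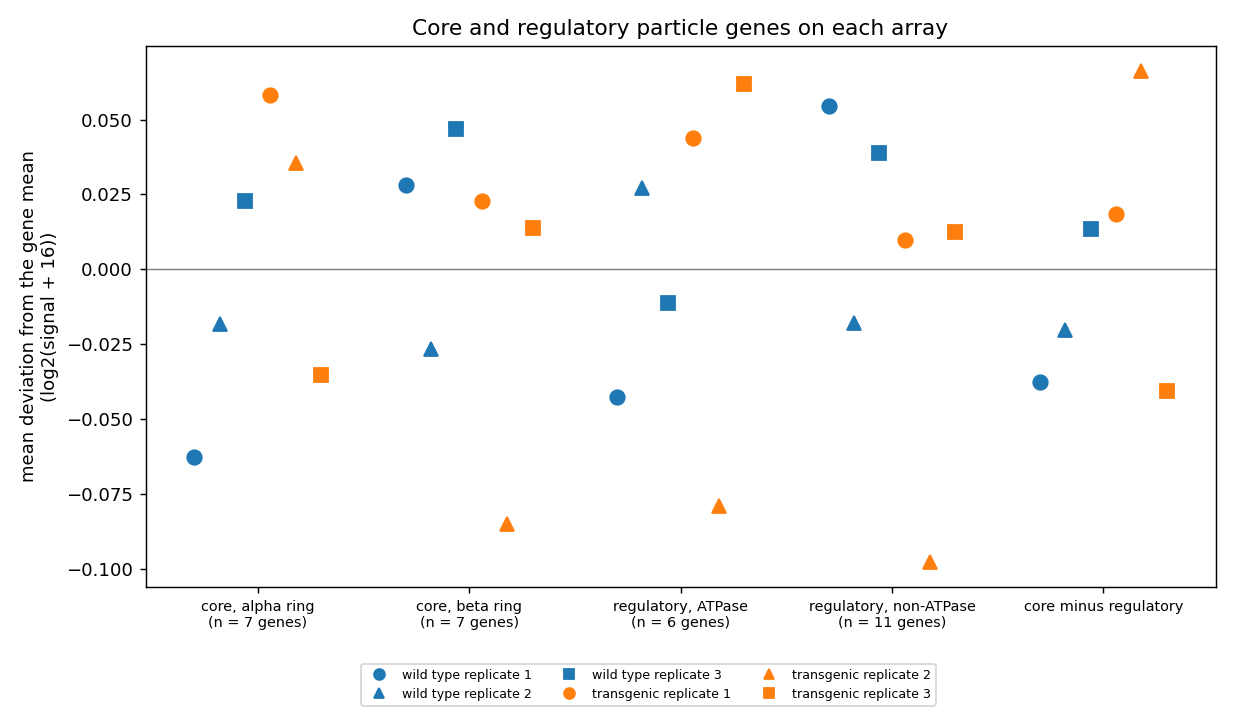
Mean deviation of the genes of each subcomplex from their own means over the 6 arrays (vertical axis, log2(signal + 16) scale), with 1 point per array, and core minus regulatory at the right. Wild type and transgenic points overlap in all 5 columns, and transgenic replicate 2 is the lowest for the beta ring and both regulatory groups.

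Of the 4 chaperones of the core, 3 had positive differences, with a median of 0.16 and a mean of 0.063. In the mean deviation of the 4 genes the genotypes overlapped, and transgenic replicate 1 alone lay above the wild type range. The chaperones Psmg1 to Psmg4 work as pairs, Psmg1 with Psmg2 and Psmg3 with Psmg4, and guide the assembly of the alpha ring. Psmg2 gave 699, 664 and 691 in wild type and 872, 785 and 784 in transgenic muscle. Each transgenic array lay well above the highest wild type one, and the means were 685 ± 17.9 and 814 ± 50.6 (SD, n = 3). The difference was 0.24 (95% interval 0.07 to 0.41), and limma's adjusted p was 0.442. The next probe set of Psmg2 also did not overlap, with 619, 609 and 633 against 766, 687 and 651, a difference of 0.17.

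Psmg3 gave 129, 162 and 150.3 in wild type and 208, 174 and 173 in transgenic muscle, without overlap. Its difference was 0.30, or 1.23-fold, with an adjusted p of 0.614. Their partners gave other values. Psmg1 gave 0.069 with overlapping groups, and Psmg4 gave 112, 183 and 209 in wild type and 175, 98.3 and 109 in transgenic muscle, a difference of -0.36 with a 95% interval of -0.86 to 0.15. Psmg4 was the least precise of the 46, and its groups overlapped widely.

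Chaperones of the regulatory particle gave smaller values. Psmd10, also known as gankyrin, gave 198, 224 and 235 in wild type and 259.6, 243 and 239 in transgenic muscle, without overlap but with a narrow gap. Its difference was 0.17 with an adjusted p of 0.763. Psmd5 gave 339, 272 and 341 against 337, 321 and 317, a difference of 0.040, in which the low wild type replicate 2 stood apart. Psmd9 gave -0.019.

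Among the activators, Psme1 had the largest positive difference of all members. With Psme2 it forms the interferon-inducible activator that opens the core without ATP. Its signals were 1273, 1389.7 and 1207 in wild type and 1518, 1630.5 and 2022 in transgenic muscle. No transgenic array reached down to the wild type range, and transgenic replicate 3 was the highest. The means were 1289.6 ± 92.7 and 1724 ± 265 (SD, n = 3), a fold of 1.32. The log2 difference of 0.41 had a standard error of 0.10 and a 95% interval of 0.18 to 0.63. In limma the p was 0.00195 before and 0.276 after adjustment. The log2 difference was 0.29 without transgenic replicate 3, 0.24 in hybridisation round 1 and 0.74 in round 2, where 1 array of each genotype was compared.

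Psme3, which forms a nuclear activator, gave 311, 383 and 321 in wild type and 362, 415 and 388 in transgenic muscle. Wild type replicate 2 overlapped the transgenic arrays, and the difference was 0.19. A dimmer probe set of Psme3 did not overlap, with 45.7, 59.5 and 60.6 against 78.3, 75.8 and 105, a difference of 0.52 with an adjusted p of 0.501. Psme4, the large nuclear activator, gave 3074, 2901 and 2866 in wild type and 2840.3, 2841 and 2563 in transgenic muscle. These did not overlap by a small margin, and the difference was -0.10. Its 4 further tested probe sets all overlapped between the genotypes. Their differences ran from -0.11 to 0.33, and 2 of them had the sign of the brightest one.

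The inhibitor Psmf1 gave 198, 210.0 and 243 in wild type and 214, 187 and 239 in transgenic muscle, a difference of -0.026. Its next probe set gave 92.3, 99.4 and 94.2 against 158, 121 and 123, without overlap and with a difference of 0.42 and an adjusted p of 0.481. These probe sets differed in sign. Psmc3ip, a meiotic recombination factor, and Psme3ip1, whose product binds Psme3, both overlapped between the genotypes. Psmc3ip gave 47.8, 51.9 and 45.8 against 51.7, 46.2 and 63.2, and Psme3ip1 gave 299.8, 344 and 429.9 against 365, 284 and 433.

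Immune and interferon markers were read beside the inducible genes, which leukocytes express at high levels. Of 12 leukocyte markers 11 were matched and 10 tested, 7 with positive and 3 with negative differences and a median of 0.040. None was called, and Cd52 came nearest, at 0.44 with an adjusted p of 0.118. Of the 10, 2 lay higher without overlap, Cd52 and Coro1a, and 0 lower, against 5.85% and 7.5% of all tested probe sets. The T cell marker Cd3e lay at a mean signal of 20.9, below the filter. Their summed signal was 4319 to 4518 in wild type and 4409 to 4758 in transgenic muscle, with transgenic replicate 3 the highest. Of 10 interferon-induced genes 7 were matched, and all 7 were positive, with a median of 0.18, none called and none without overlap. Their sums overlapped, at 1412 to 1501 in wild type and 1300.3 to 1859 in transgenic muscle, and the part of either list in the values of Psme1 or Psmb10 was not tested.

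The 46 genes had 37 further tested probe sets, on 22 genes. Of these, 24 had the sign of the brightest one and none was called, the lowest adjusted p being 0.418. The signs were alike throughout for 11 genes, Psmg2 and Psmd11 among them, and mixed for the other 11, including Psmb3, Psmc4 and Psmf1. A further 16 probe sets were too dim to test, and 22 of the 48 genes had a single probe set.

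Other genes of the ubiquitin-proteasome system were read beside the members. Of a list of 41, 31 were matched and 30 tested, 9 with positive and 21 with negative differences and a median of -0.055. With equal array medians 15 of the 30 were positive and 15 negative. None passed by the probe set that stood for it, and of the 30, 2 lay higher and 5 lower without overlap, against 5.85% and 7.5% of all tested probe sets. Proteins that sit on the particle had 7 of 9 negative. Ecpas, which tethers core to cap, gave 988, 926 and 981 in wild type and 814, 880.1 and 861 in transgenic muscle, a difference of -0.18. Sem1, a small subunit of the regulatory particle, gave -0.14, and the ligase Ube3c gave -0.18, both without overlap. The deubiquitinase Usp14 gave 449.9, 508 and 495 against 589, 573 and 513, without overlap and in the other direction, at 0.20.

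Nfe2l1, the transcription factor of the subunit genes, gave 932, 754 and 879 in wild type and 775, 686 and 838 in transgenic muscle. These overlap, and the difference was -0.15. Its relative Nfe2l2 gave 0.16, and the 5 tested genes of transcriptional control had a median of -0.11. Of the shuttle and segregase genes 7 were tested, 5 of them negative, with a median of -0.017, which was 0.033 with equal array medians. The segregase Vcp gave -0.098. Of the ubiquitin pool genes only the deubiquitinase Usp5 was tested, with 267, 256 and 323 in wild type and 319.8, 444 and 338 in transgenic muscle, which overlap, a difference of 0.35. Muscle ligases had 5 of 8 negative. Fbxo32, a ligase of muscle atrophy, gave 704, 762 and 812 in wild type and 530.5, 584 and 385 in transgenic muscle. Its groups did not overlap, and the difference of -0.61 had an adjusted p of 0.185. Mdm2 gave -0.28. Trim63, the other atrophy ligase, gave 3059, 2915.9 and 2851 in wild type and 2915.8, 2938 and 2194 in transgenic muscle. These overlap, with transgenic replicate 3 alone below the wild type range, and the difference was -0.14. Of the 3 positive ligases Stub1 had the largest difference, at 0.17.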

How the data were processed

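Labelled RNA of 6 pools of mouse muscle was hybridised to Affymetrix Mouse430_2 arrays. The authors deposited 1 linear intensity for each probe set and array. The submitters' processing notes name GCOS 1.1.1, and no source used here gives its algorithm. Every array had a 2% trimmed mean of 150.0, and such scaling hides any change common to most transcripts. Array medians were 34.0 to 38.4. The number of arrays limits the precision.

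Controls, 64 of 45101 entries, were not analysed. After log2(signal + 16), probe sets above the 40th percentile of the mean, a signal of about 21.7, were kept, which left 27022. Genotypes were compared in limma 3.58.1 (R 4.3.3) using lmFit and eBayes with a trend on intensity, without covariates, by two-sided test. The code was tested on simulated data. Groups came from the genotype labels. The run information gave 4 fluidics modules and a hybridisation time for each array. The 2 hybridisation rounds were formed here from gaps between those times.

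Symbols were updated through gene identifiers to RefSeq's GRCm38.p6 table, which matched 34741 of 34945 probe sets with 1 symbol. Members whose arrays do not overlap, and the member of smallest p and that of highest signal in each role, are given array by array. Psma8, Psmb9, Psmd3, Psme3 and Psmg4 were added after their values were seen. Of the other lists, up to 4 genes with the smallest p are named, and others by role were chosen after their values were seen. Members, lists and tests were chosen with earlier results of these data known. Alternatives were other offsets, filters, normalizations and variance models, array weights, blocks, mean probe sets and leaving out each array.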

Additional observations from a re-analysis of the deposited data

How the results depend on the processing

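No member passed under 18 of 19 alternatives. A random block for fluidics module gave 2, Psmb3 at -0.26 and Psme1 at 0.44. No module held both genotypes, and the estimated correlation was -0.44. The count over all probe sets was 33, 50 with equal array medians, 297 with the module block, 17 with no filter, 1 without the intensity trend and 18 to 39 when single arrays were left out, 18 being the value that leaves out wild type replicate 2 and 19 the one that leaves out wild type replicate 1. Members without overlap numbered 6 with equal array medians, where 13.2% of all probe sets did not overlap. They numbered 16 to 19 when single arrays were left out, where fewer arrays make overlap rarer. The share over all probe sets was not computed with single arrays left out, so those counts have no background beside them. The replicate block gave 36 calls over all probe sets and 0 members, and same-numbered arrays deviated together by correlations of only 0.003, 0.06 and 0.049, so the numbers were not taken to pair the pools.

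With equal array medians the median was 0.043 for all members, 0.070 for the core and -0.0085 for the regulatory particle. In hybridisation round 1 the core median was 0.070, in round 2 -0.030, and with mean probe sets -0.037. Core minus regulatory was 0.018 in round 2 and 0.021 with mean probe sets. It was above 0 in all 18 alternatives, but these reuse the same 6 arrays and several left it unchanged. Equal array medians, other filters, the replicate and round blocks and adding Psmb9 and Psmb10 each gave the main value of 0.079. Leaving out single arrays gave -0.016 to 0.025 for all members, the highest without transgenic replicate 2, 0.0034 to 0.047 for the core, -0.077 to -0.023 for the regulatory particle and 0.049 to 0.10 for core minus regulatory. The alternatives with Psmb9 and Psmb10 in the core were added after the data were seen.

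Of the 22 members that the naming rule gives array by array, 16 kept their sign in every alternative run for them, which did not include the module block. Psmb9, Psmd3, Psme3 and Psmg4 were not among them. Psmb7 was 0.025 with equal array medians, 0.046 in round 2 and -0.11 to 0.11 without single arrays. Psmc2 was -0.048 in round 2, -0.0032 with quantile normalization and -0.0086 to 0.041 without single arrays. Psmd5 was -0.098 in round 2 and -0.063 to 0.092 without single arrays. Psmf1 was 0.024 with equal array medians and -0.11 to 0.058 without single arrays. Psmc3ip was -0.021 in round 1. Psme3ip1 was -0.041 with array weights, -0.0018 with quantile normalization and -0.13 to 0.16 without single arrays. The cause of these shifts was not tested.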
